A study of Oryza sativa with 14 samples.

Results

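Unstable rice lines of different origin were compared directly with each other: the 2 arrays of the unstable mutant against the 2 arrays of the unstable transgenic line, out of 14 arrays in the whole series. The arrays were chosen by their labels alone, and the comparison covered 57194 probe sets, which is every probe set of the Affymetrix rice array apart from its control and reporter probe sets. Both lines are Oryza sativa ssp. japonica of the cultivar Nipponbare. The unstable mutant is the M1 generation (the plants raised from the treated seed) of a line that received 100 Gy of gamma rays, and it was picked because it looked most like unirradiated plants. The unstable transgenic line is the T1 generation of a line transformed with Agrobacterium tumefaciens, with 1 copy of BCBF1 under the Arabidopsis RD29A promoter and 1 copy of the hygromycin resistance gene hpt II. That promoter is known to respond to drought, cold and salt. A Nipponbare control, neither irradiated nor transformed, is given for reference, and seed of control and treated plants came off the same selfed panicle.

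Each array held RNA from a pool of 6 whole seedlings, frozen at 12 days of age. The seedlings were kept at 28 °C, dark for 2 days and then for 10 days with 12 h of light. The transgenic seed germinated with 30 mg/L hygromycin B and the mutant and control seed without it, so irradiation, transgene and antibiotic cannot be told apart in this comparison, nor can any difference in genetic background between the lines. Each line is a single line, so that a difference between the lines is not a measure of mutagenesis or of transformation in general. Levels are log2 values, given as replicate 1 and then replicate 2 of a group, and a difference is the mutant minus the transgenic line on the log2 scale with its standard error (SE). A probe set or gene is called higher or lower when its limma p-value, adjusted over all probe sets by Benjamini-Hochberg, is under 0.05. Detection calls were not analysed here, so a fold against a dim level also rests on array background. Where 1 array of a line was left out, that line kept 1 array, and the spread came from the other groups. A call kept there does not measure the agreement of the 2 arrays.

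Several of the gene groups described here are linked in textbook plant biology. Jasmonate is a lipid-derived hormone made through lipoxygenases, allene oxide synthase and allene oxide cyclase, and JAZ proteins repress its responses while their own genes are induced by it. DREB1 proteins, also called CBF, bind the dehydration-responsive element found in promoters such as that of RD29A. Roots carry the transporters that take up nitrate, phosphate, iron and water, and the growth of a seedling rests on cell division followed by expansion of the wall.

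The arrays of a line agreed closely within it and less between the lines. Across probe sets, which are not independent, the 2 mutant arrays correlated at 0.995 and the 2 transgenic arrays at 0.994, whereas arrays of different lines reached 0.962 to 0.971. The mutant correlated with the Nipponbare control at 0.971 to 0.978 and with the Bengal control, another cultivar, at 0.972 to 0.974, and the transgenic line correlated with the Nipponbare control at 0.981 to 0.990. A set of 320 probe sets with a cultivar pattern was taken from the other 10 arrays, by a gap of more than 3 on the log2 scale between cultivars and a level under 6 on the low side. Both mutant arrays lay on the Nipponbare side for 283 of them and, against the cultivar label, not for 37, and both transgenic arrays for 316 and not for 4. Of the genes described below JAZ2, NRT2.2, NRT2.3, GLU15, APG8D and LOC4344505 are among those where the mutant did not read as Nipponbare. So are LOC4350420, LOC4350879, LOC4350888, LOC4350994, LOC4350996 and LOC4350998 of chromosome 11. The check left out other genes where the mutant stood with Bengal and Estrela A. Its low level left out genes such as IRT1 and BURP16, and VIT2 also fell short of its gap. Levels in the mutant thus went against its cultivar label, and not only at the genes of the check. Only expression was read, so the genetic background of the mutant line cannot be told from these levels. The part of genetic background in the results was not tested. The difference between the 3′ and 5′ probe sets of actin was 2.94 to 3.03 in the mutant and 3.16 to 3.27 in the transgenic line, and that of cyclophilin 0.50 to 0.86 and 1.00 to 1.04. That of GAPDH went the other way, 0.79 to 1.11 in the mutant and 0.50 to 0.68 in the transgenic line, and that of EF1a overlapped (-2.49 to -2.14 and -2.24 to -2.08); the GAPDH and EF1a probe sets were dim. The part of RNA quality in the results was not tested. Of the 64 reporter probe sets none was called (11 had an unadjusted p under 0.05), and all read between 2.90 and 7.34 on the 6 Nipponbare arrays. The reporter with the largest difference averaged 3.81 in the mutant, 4.99 in the transgenic line and 3.83 in the control (-1.18, adjusted p = 0.067).

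The lines differed in a large share of their transcripts. Of the 57194 probe sets 16789 were called (29.4%), 8979 of them higher in the mutant (15.7%) and 7810 lower (13.7%). After cyclic loess scaling the balance turned, with 7844 higher and 8864 lower. An unadjusted p under 0.05 was found for 21539. With a further demand of 2-fold, 4698 were called (8.21%), 2025 higher (3.54%) and 2673 lower (4.67%). Among 17905 genes, each taken by its brightest probe set, 9026 were called (50.4%), 4031 higher in the mutant (22.5%) and 4995 lower (27.9%). Large differences leaned towards lower levels in the mutant: 844 genes were called and at least 2-fold higher (4.71%) against 1767 at least 2-fold lower (9.87%), and 31 against 105 differed by at least 8-fold. The median difference over all genes was -0.04. These shares of all genes, 50.4% called, 22.5% higher and 27.9% lower, are the background for each count of list members below. All but 1 of the called probe sets had arrays of the lines that did not overlap, as did 60.1% of all probe sets. The Nipponbare control lay nearer the transgenic line than the mutant for 70.4% of the called probe sets, against 56.1% of all. The mean of the Bengal and Estrela A controls lay nearer the mutant for 72.4% of them, against 61.5% of all. Of 40287 probe sets not called in a test among the 3 cultivar controls, 6913 were called between the lines (17.2%), and 58.4% of the rest were. Both tests came from 1 fit and shared the spread of each probe set, so these shares are not independent of it. Below, a gene or probe set said not to differ among or between the cultivar controls is one not called in that test, which does not show equal levels. In whole seedlings, fewer cells of a type and less RNA per cell cannot be told apart.

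**Figure D1:**
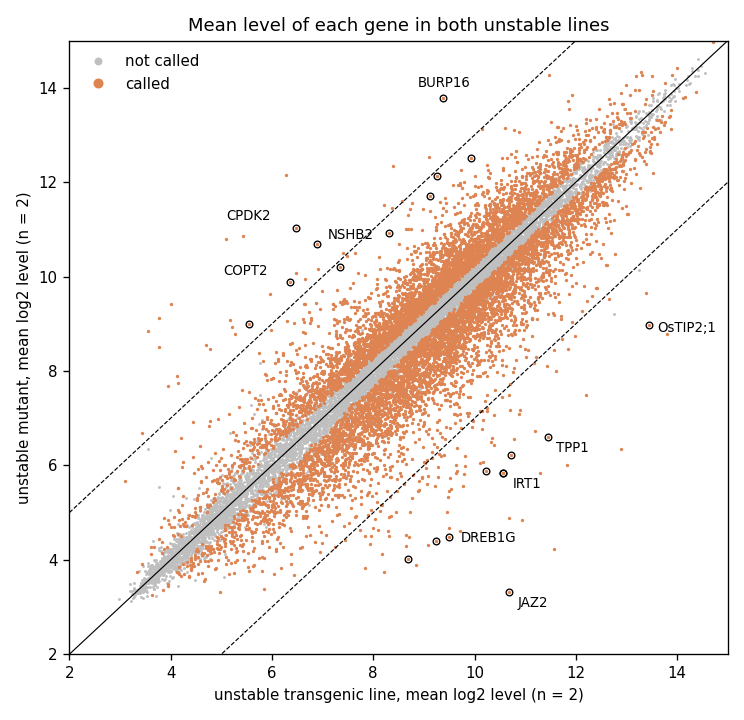
Mean log2 level of each of 17905 genes in the unstable transgenic line (x axis) and the unstable mutant (y axis), n = 2 arrays each. Orange points are called at an adjusted p under 0.05, dashed lines mark 8-fold and circles mark the named genes with the largest differences. More genes lie beyond the lower dashed line (105 called) than beyond the upper one (31 called).

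The JAZ repressors of jasmonate signalling were lower in the mutant almost without exception. Of 13 members 12 were called lower and none higher, with a median difference of -2.15 beside -0.04 over all genes. JAZ2 (LOC4342421) had the largest difference of any named gene. It read 3.40 and 3.21 in the mutant, 10.72 and 10.66 in the transgenic line and 10.61 and 10.60 in the control. The mutant was thus 167-fold below the transgenic line (difference -7.39, SE 0.10, adjusted p = 4.56e-12), and the transgenic line and the control read alike. Bengal and Estrela A, at 3.36 and 3.50, stood at the level of the mutant.

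In the other 11 called JAZ genes both transgenic arrays stood above both the mutant and the control arrays. JAZ13 (LOC4348531) read 5.95 and 5.74 in the mutant, 11.77 and 9.35 in the transgenic line and 4.92 and 5.46 in the control, a 26.3-fold difference between the lines (adjusted p = 8.97e-05). For JAZ9 (LOC4331832) the mutant arrays gave 5.09 and 5.59, the transgenic arrays 11.19 and 7.74 and the control arrays 5.89 and 5.29, a 17.4-fold difference (adjusted p = 0.00118). The mutant and control arrays overlapped in JAZ9 and lay close together in JAZ13, and replicate 1 of the transgenic line stood far above replicate 2. Without transgenic replicate 1 the folds of JAZ13 and JAZ9 were 11.4 and 5.28, against 60.8 and 57.7 when replicate 2 was dropped. Over the 13 members replicate 1 of the transgenic line read higher than replicate 2 in 12, by a median of 0.78. When each of the 4 arrays was left out in turn, the fold of JAZ2 ranged from 156 to 179. JAZ3, at a difference of 0.02, was the member not called.

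**Figure D2:**
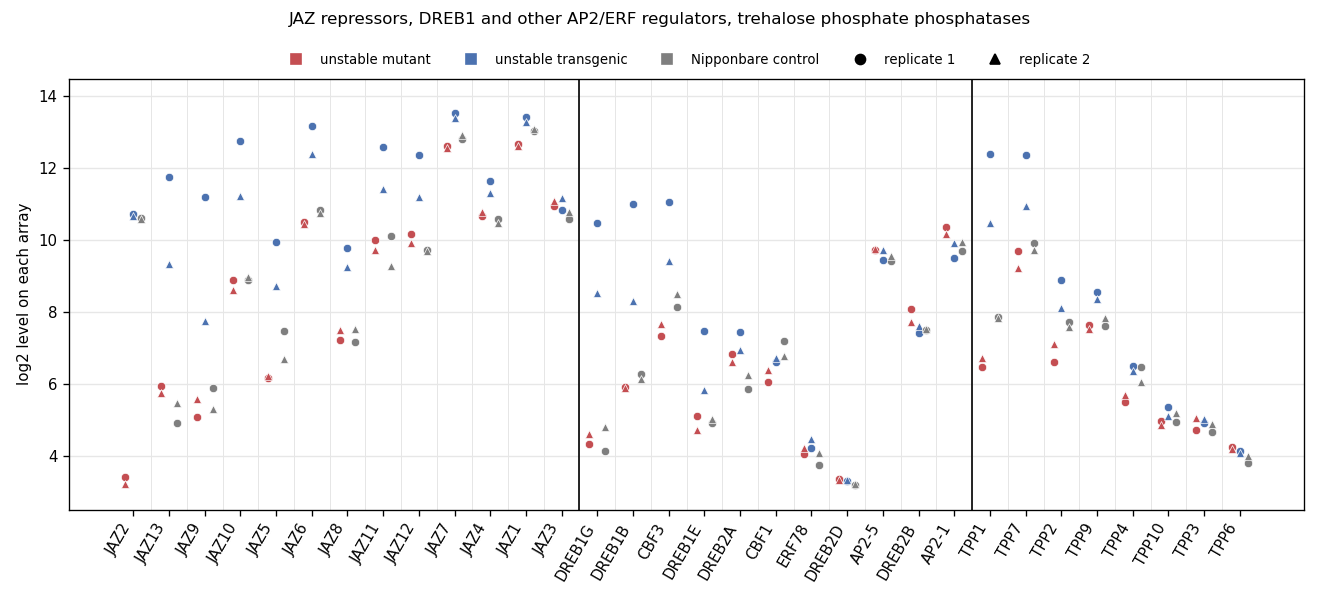
Log2 level on each array (y axis) of 13 JAZ genes, 11 DREB1 and other AP2/ERF genes and 8 trehalose-6-phosphate phosphatase genes (x axis, groups split by vertical lines). Red marks the unstable mutant, blue the unstable transgenic line and grey the Nipponbare control, with circles for replicate 1 and triangles for replicate 2. The blue points stand above the red ones for 12 of the 13 JAZ genes, and JAZ2 is the gene where the red points alone lie low.

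Of 23 genes of jasmonate synthesis and signalling, taken as 1 list, 13 were called lower in the mutant, 2 higher and 8 not (median -0.91). The lipoxygenase gene CM-LOX2 read 5.54 and 5.6 in the mutant, 9.49 and 8.92 in the transgenic line and 9.06 and 7.30 in the control, which made it 12.4-fold lower in the mutant (adjusted p = 0.000197). LIS, a linalool synthase that jasmonate is known to induce, read 4.37 and 4.46, 8.07 and 6.80 and 4.41 and 4.78 in the same order, and was 8.11-fold lower (adjusted p = 2.05e-05). The allene oxide synthase gene CYP74A1 read 7.77 and 7.63, 10.18 and 9.37 and 7.82 and 7.99, and was 4.21-fold lower (adjusted p = 2.49e-05). The mutant and the transgenic line did not overlap in any of these 3 genes, and another 2 probe sets of CM-LOX2, both dim, were not called (-0.17 and -0.07). In CM-LOX2 the control arrays lay apart from each other, 1 inside the range of the transgenic line. The fold of LIS was 5.22 without transgenic replicate 1 and 12.6 without replicate 2. Both genes called higher in the mutant, COI1B and COI1, code for COI receptor proteins, with differences of 0.65 and 0.27 (adjusted p = 0.00128 and 0.0326); they were named after their values were seen.

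Genes of the DREB1 regulators of cold and drought responses were among the largest differences. Among the Nipponbare groups, DREB1G and DREB1B were high in the transgenic line alone. For DREB1B the stable mutant of the cultivar Estrela A read 6.1 and 7.53. Whether probe sets of this family also read the transgene BCBF1 was not tested. DREB1G (LOC4330306) read 4.34 and 4.61 in the mutant, 10.48 and 8.52 in the transgenic line and 4.14 and 4.80 in the control, 32.6-fold lower in the mutant than in the transgenic line (adjusted p = 1.1e-05). DREB1B (LOC4347618) gave 5.90 and 5.88 in the mutant against 11.02 and 8.30 in the transgenic line, with 6.27 and 6.13 in the control, a 13.6-fold difference (adjusted p = 0.00086). CBF3 (LOC4347620) gave 7.32 and 7.67 against 11.06 and 9.41, with 8.15 and 8.51 in the control, a 6.68-fold difference (adjusted p = 0.000359). For all 3 genes the mutant and control arrays lay below both transgenic arrays, and replicate 1 of the transgenic line lay above replicate 2. CBF3 was also well above the 5.91 of Bengal and 5.93 of Estrela A in the mutant and the control. Leaving out transgenic replicate 1 gave folds of 16.5, 5.31 and 3.77 for DREB1G, DREB1B and CBF3, while leaving out replicate 2 gave 64.2, 35 and 11.8. Of 11 DREB1 and other AP2/ERF genes 6 were called lower in the mutant and 1 higher (median -0.46). These 7 calls fell to 4 without mutant replicate 1 and to 4 without transgenic replicate 1. The gene called higher, AP2-1, differed by 0.56 (adjusted p = 0.0081) and was named after its value was seen.

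Trehalose-6-phosphate phosphatases, which make the stress-linked sugar trehalose from its phosphate, went the same way. Of 8 genes 5 were called lower in the mutant and none higher (median -0.85). TPP1 (LOC4330221) read 6.48 and 6.73 in the mutant, 12.41 and 10.49 in the transgenic line and 7.87 and 7.84 in the control, a 28.7-fold difference between the lines (adjusted p = 1.32e-05). TPP7 was 4.61-fold lower in the mutant (9.70 and 9.23 against 12.38 and 10.96, adjusted p = 0.000445) and TPP2 3.13-fold lower (6.60 and 7.11 against 8.89 and 8.11, adjusted p = 0.000177). For TPP1 both mutant arrays lay below the control and both transgenic arrays far above it. Its fold was 14.8 without transgenic replicate 1 and 55.9 without replicate 2, and that of TPP7 2.82 and 7.54. A dim second probe set of TPP7 was not called (-0.08).

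Dehydrins and other LEA proteins, which accumulate in drying tissue and seeds under abscisic acid, ran the opposite way. Of 8 genes 4 were called higher in the mutant and 1 lower (median 0.97). The dehydrin gene RAB16D read 9.77 and 8.74 in the mutant, 6.80 and 6.67 in the transgenic line and 6.89 and 7.0 in the control, 5.74-fold higher in the mutant (adjusted p = 0.000457). For RAB21 the values were 12.46 and 12.56, 10.37 and 10.93 and 7.96 and 9.40, a 3.63-fold rise over the transgenic line (adjusted p = 0.00551). LEA19 gave 12.31 and 12.31, 10.52 and 10.62 and 6.95 and 8.77, 3.34-fold higher (adjusted p = 0.011). In RAB21 and LEA19 the control read lowest of these 3 groups, while Bengal and Estrela A read 13.54 and 12.89 for RAB21 and 12.83 and 11.91 for LEA19. For RAB16D Bengal read 9.02, near the mutant, and Estrela A 7.15, near the Nipponbare control. RAB21 was not called without transgenic replicate 1 (adjusted p = 0.0524), nor LEA19 without either mutant array or transgenic replicate 1 (0.0517 to 0.0573), and the 5 called members fell to 3 without either mutant array and to 2 without transgenic replicate 1. All 5 calls were of genes that also differed among the cultivar controls. The member called lower, Dhn1, differed by -1.36 (adjusted p = 1.14e-05), chosen after its value was seen.

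Abscisic acid genes were mixed. Of 23 genes of its synthesis and signalling 5 were called higher in the mutant and 8 lower (median 0.00). ABA8OX1, which codes for the hydroxylase that breaks abscisic acid down, read 7.27 and 7.72 in the mutant, 11.05 and 10.31 in the transgenic line and 9.20 and 9.60 in the control, 9.09-fold lower in the mutant (adjusted p = 6.55e-06). The kinase gene SAPK9 was 5.7-fold lower (7.20 and 6.30 against 9.17 and 9.35, adjusted p = 8.22e-06) and the clade A phosphatase gene OsPP2C08 3.62-fold lower (6.02 and 5.84 against 8.24 and 7.33, adjusted p = 0.000175). For ABA8OX1 the control lay between the lines.

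Genes for diterpenoid phytoalexins, the antimicrobial compounds of rice, were lower in the mutant. Of 17 genes 11 were called lower in the mutant and none higher (median -1.67). CYP701A8 (LOC4341343), a P450 of this pathway, read 4.40 and 4.39 in the mutant, 9.09 and 9.38 in the transgenic line and 10.77 and 7.85 in the control, 28.6-fold lower in the mutant (adjusted p = 0.00104). CPS2 (LOC9266189), the copalyl diphosphate synthase that opens the pathway, gave 4.13 and 3.88, 8.49 and 8.87 and 10.43 and 7.08, a 25.5-fold difference (adjusted p = 0.00111). CYP71Z7 (LOC4329726) gave 5.89 and 6.56, 10.50 and 10.92 and 11.94 and 9.11, a 22.4-fold difference (adjusted p = 0.00354). In all 3 genes the control arrays lay one on each side of the transgenic pair, and no array of either group reached down to the mutant. Bengal and Estrela A, however, read 3.89 and 4.31 for CPS2 and 6.83 and 6.77 for CYP71Z7, near the mutant. For CYP701A8 they read 7.14 and 5.54. In all 11 called genes the mean of these 2 cultivars lay nearer the mutant than the transgenic line. Only 2 of the 11 called genes were among those that did not differ between the cultivar controls, and the calls fell to 6 without transgenic replicate 1.

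Other defence genes were called less clearly. Of 19 pathogenesis-related proteins and chitinases 7 were called lower and 1 higher (median -0.54), which is 42.1% called where 50.4% of all genes were. The PR10 gene PBZ1 read 9.41 and 9.57 in the mutant, 12.14 and 12.32 in the transgenic line and 13.14 and 11.24 in the control, 6.68-fold lower in the mutant (adjusted p = 0.029). PBZ1 lost its call without any 1 of the 4 arrays of the lines (adjusted p = 0.0900 to 0.117). The chitinase gene Cht6 was 4.07-fold lower (5.58 and 5.74 against 7.67 and 7.70, adjusted p = 0.000757), and NH3, a relative of the salicylate receptor gene NPR1, 2.62-fold lower (9.11 and 9.13 against 10.57 and 10.45, adjusted p = 9e-06). The 8 called members fell to 4 without mutant replicate 1 or transgenic replicate 1 and to 5 without mutant replicate 2.

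Of 6 WRKY transcription factors 3 were called lower in the mutant and 2 higher (median -0.86). WRKY76 read 6.65 and 7.64 in the mutant, 10.82 and 9.40 in the transgenic line and 8.40 and 7.55 in the control, 7.81-fold lower in the mutant (adjusted p = 0.000314), and WRKY71 was 4.23-fold lower (9.09 and 8.77 against 11.85 and 10.17, adjusted p = 0.00192). Another probe set of WRKY71 differed by -0.93 and was not called (adjusted p = 0.0914). WRKY24 was 2.31-fold lower (adjusted p = 0.0471) and lost its call without either mutant array or transgenic replicate 1 (adjusted p = 0.129 to 0.36). The called members fell from 5 to 3 without mutant replicate 1 or transgenic replicate 1. The folds of WRKY76 and WRKY71 were 4.77 and 2.36 without transgenic replicate 1 and 12.8 and 7.57 without replicate 2. Of 17 phenylpropanoid and flavonoid genes, which feed lignin and phenolic compounds, 10 were called lower and 2 higher (median -0.60). The coumarate ligase gene 4CL5 read 7.03 and 7.28 in the mutant, 10.89 and 9.60 in the transgenic line and 8.35 and 7.83 in the control, 8.51-fold lower in the mutant (adjusted p = 0.000184), or 5.45 and 13.3 without transgenic replicate 1 and 2. The phenylalanine ammonia-lyase gene PAL06 was 3.24-fold lower (adjusted p = 0.000142) and CAD6, of the cinnamyl alcohol dehydrogenase family, 2.58-fold lower (adjusted p = 0.000212). Of 29 cytochrome P450 genes, some of them in the groups above, 12 were called lower and 3 higher (median -0.66).

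Single transporters of iron, phosphate and nitrate uptake differed widely between the lines, within gene groups that were mixed. The iron transporter gene IRT1 (LOC4333669) read 5.87 and 5.81 in the mutant, 10.81 and 10.30 in the transgenic line and 10.88 and 11.25 in the control, 26.3-fold lower in the mutant than in the transgenic line (adjusted p = 6.25e-08). The phosphate transporter gene OsPht1;2 (LOC4331637) read 6.03 and 5.72, 10.28 and 10.18 and 9.38 and 9.72, a 20.5-fold difference (adjusted p = 6.25e-08). For the high-affinity nitrate transporter gene NRT2.2 (LOC4328052) the values were 4.96 and 5.06, 8.14 and 9.29 and 9.25 and 9.97, a 13-fold difference (adjusted p = 6.53e-06). In these 3 genes the control stood with the transgenic line, far above the mutant, and the Bengal and Estrela A controls stood low: 5.57 and 5.53 for IRT1, and 4.87 and 5.09 for NRT2.2.

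Nitrogen, phosphate and metal genes as whole groups were more mixed. Of 18 nitrate and ammonium genes 8 were called lower in the mutant and 1 higher (median -0.30), and the 9 calls fell to 5 without mutant replicate 1. None of the 9 was among the genes that did not differ between the cultivar controls. The list was 50.0% called, near the 50.4% of all genes. NAR2.2, a partner protein of nitrate transporters, was 8.25-fold lower (5.78 and 6.70 against 9.29 and 9.28, adjusted p = 4.39e-05) and NRT2.3 5.56-fold lower (5.41 and 5.47 against 7.77 and 8.06, adjusted p = 7.22e-08). The gene called higher, NIA1, codes for nitrate reductase and differed by 1.28 (adjusted p = 0.000112), chosen after its value was seen. Of 20 genes of phosphate sensing and transport 6 were called lower and 5 higher (median -0.11), which fell from 11 to 7 without mutant replicate 1. SPX2, of the SPX family of phosphate sensors, was 4.36-fold higher in the mutant: it read 8.40 and 8.09 there, 6.55 and 5.69 in the transgenic line and 8.79 and 8.58 in the control. In SPX2 the control lay above the mutant and the transgenic line stood low (adjusted p = 3.73e-05 between the lines). The transporter gene OsPht1;8 was 3.48-fold lower (adjusted p = 5.74e-06).

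Of 60 iron, zinc and copper genes 19 were called higher in the mutant and 16 lower (median 0.00), so that the fall of IRT1 was not shared by the group. The copper transporter gene COPT2 (LOC4338846) read 10.05 and 9.73 in the mutant, 6.05 and 6.65 in the transgenic line and 5.94 and 6.92 in the control, 11.6-fold higher in the mutant (adjusted p = 1.12e-05). VIT2 (LOC4346978), for a transporter of iron into the vacuole, read 12.56 and 12.47, 9.94 and 9.92 and 10.67 and 10.28, a 6-fold rise over the transgenic line (adjusted p = 1.32e-07). In both genes the control lay nearer the transgenic line than the mutant. Bengal and Estrela A read 8.66 and 9.12 for COPT2 and 12.67 and 12.92 for VIT2, nearer the mutant than the Nipponbare control.

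Water channels included another large fall. OsTIP2;1 (LOC4330207), an aquaporin of the vacuole membrane, read 8.57 and 9.37 in the mutant, 13.54 and 13.35 in the transgenic line and 13.53 and 13.55 in the control, 22.2-fold lower in the mutant (adjusted p = 5.11e-06). The plasma membrane aquaporin genes OsPIP2;7 and OsPIP2;5 were 3.46- and 2.39-fold lower (adjusted p = 3.09e-06 and 6.89e-06). Of 25 aquaporins 7 were called lower and 2 higher (median -0.21). The family was 36.0% called, less than the 50.4% of all genes, and most of it was not called.

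Most markers of the root were called lower in the mutant, which in part repeats the transporters above. Of 14 root markers, a list that holds several of the transporters above, 10 were called lower in the mutant and none higher (median -1.09). Their summed level, as log2 of the sum on the linear scale, was 13.44 and 13.38 in the mutant, 14.34 and 14.32 in the transgenic line and 14.60 and 14.73 in the control. On the mutant arrays 6 and 8 of the 14 read below the median of all values, 5.86, and 3 did on each transgenic array. Only 2 of the 10 called root markers did not differ between the cultivar controls. For 8 of the 10 the mean of Bengal and Estrela A lay nearer the mutant than the transgenic line. The regulators of root cell identity SHR1 and SCR1 differed by -0.93 and -0.69 (adjusted p = 0.00256 and 0.0355), and QHB, which marks the quiescent centre, by -0.29 (adjusted p = 0.44); these 3 were named after their values were seen. Of 14 shoot markers 6 were called higher in the mutant and 4 lower (median 0.07). Their summed levels were 15.15 and 15 in the mutant, 14.64 and 14.80 in the transgenic line and 14.94 and 14.88 in the control. Their 10 calls fell to 4 without mutant replicate 1 and to 5 without transgenic replicate 1, and the named members OSH1, SSI and OSH43 differed by -0.98, 0.66 and -0.62. OSH1 and OSH43 were not called without mutant replicate 1 (adjusted p = 0.0823 and 0.0829) or transgenic replicate 2 (0.079 and 0.096), and another probe set of OSH43 was not called (-0.18). The summed levels of 12 genes of the photosynthetic apparatus were 16.88 and 16.89 in the mutant and 16.83 and 16.91 in the transgenic line. The control gave 16.94 and 16.94. The part of the balance of root to shoot in the differences of root-expressed genes was not tested.

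**Figure D3:**
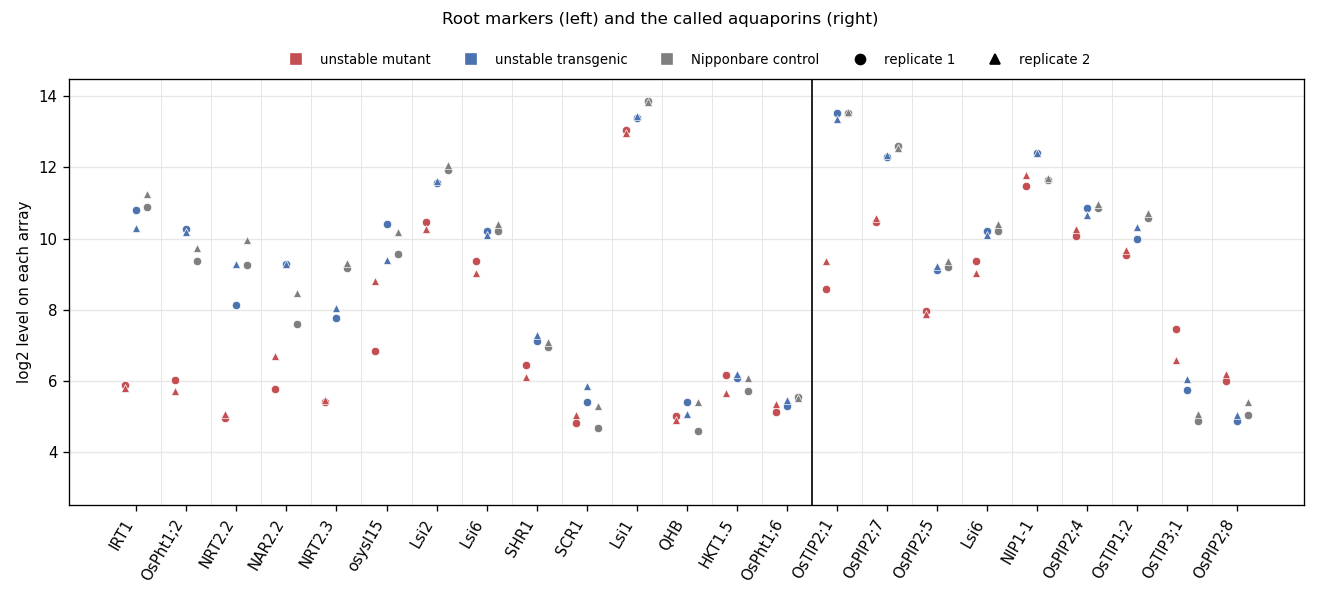
Log2 level on each array (y axis) of the 14 root markers (left of the line) and the 9 called aquaporins (right of it). Red marks the unstable mutant, blue the unstable transgenic line and grey the Nipponbare control. IRT1, OsPht1;2, the NRT2 genes and OsTIP2;1 show red points well below blue and grey ones, and OsTIP3;1 and OsPIP2;8 show red points above both.

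Genes that build and loosen the cell wall were broadly lower in the mutant. Of 41 genes of cellulose and wall synthesis 30 were called lower and 4 higher (median -0.79), and of 43 expansins and wall-loosening enzymes 28 were called lower and 2 higher (median -0.57), where 27.9% of all genes were called lower and 22.5% higher. BC1L9, a COBRA-like gene of wall assembly, read 6.16 and 6.96 in the mutant, 11.12 and 10.43 in the transgenic line and 8.15 and 7.89 in the control, 18.6-fold lower in the mutant (adjusted p = 2.04e-05). CESA6, a subunit of the cellulose synthase of growing walls, read 9.52 and 9.97, 12.57 and 12.20 and 11.62 and 11.79, a 6.23-fold difference (adjusted p = 2.01e-06). BC1L6 was 5.31-fold lower (5.81 and 5.75 against 8.51 and 7.87, adjusted p = 5.87e-06). In these 3 genes the control lay between the lines.

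Among the wall-loosening enzymes the endoglucanase gene GLU15 read 4.46 and 4.54 in the mutant, 8.34 and 8.28 in the transgenic line and 8.43 and 8.16 in the control, 14-fold lower in the mutant (adjusted p = 5.53e-09). Its Bengal and Estrela A levels, 4.58 and 4.47, stood beside the mutant. The expansin genes EXP3 and EXP1, whose proteins let the wall extend, were 10.8- and 6.73-fold lower (5.32 and 5.62 against 9.48 and 8.32, and 6.97 and 6.96 against 9.82 and 9.61; adjusted p = 1.29e-05 and 2.02e-05). Of the called genes in these 2 lists 13 and 14 did not differ between the cultivar controls.

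Cell-division genes were called lower in the mutant more often than higher. Of 56 genes of the cell cycle and DNA replication 30 were called lower and 11 higher (median -0.49). The cyclin gene CYCP2-1 read 6.37 and 6.74 in the mutant, 8.92 and 8.89 in the transgenic line and 9.14 and 9.48 in the control, 5.1-fold lower in the mutant (adjusted p = 2.92e-06). MCM4, a subunit of the replicative helicase, gave 6.88 and 6.79, 8.52 and 8.59 and 8.12 and 8.27, and CYCB2, a mitotic cyclin, 7.95 and 7.91, 9.50 and 9.80 and 9.05 and 9.33. Both were 3.29-fold lower (adjusted p = 5.57e-05 and 0.000125), and in all 3 genes the control lay near the transgenic line.

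Repair genes, of interest after gamma irradiation, were not raised as a group in the mutant. Of 25 genes of DNA repair and the damage response 5 were called higher in the mutant and 10 lower (median -0.12), the largest rise being 0.88. OsRPA32 and OsRPA70b, subunits of the replication protein A that coats single-stranded DNA, were 3.02- and 2.78-fold lower (7.96 and 8.26 against 9.61 and 9.80, and 7.16 and 7.53 against 8.63 and 9.01; adjusted p = 3.01e-05 and 0.000145). CRC1, which acts in meiosis, was 2.14-fold lower (adjusted p = 7.99e-05). Of 29 genes of DNA methylation and chromatin 9 were called lower and 5 higher (median -0.07), and the 14 calls fell to 8 without mutant replicate 1 or transgenic replicate 1 and to 9 without transgenic replicate 2. The DNA methyltransferase genes CMT3 and MET1 (LOC4342575) were 2.85- and 2.68-fold lower (7.05 and 7.38 against 8.63 and 8.82, and 7.62 and 7.73 against 8.94 and 9.25; adjusted p = 0.000133 and 5.21e-05), and the Argonaute gene AGO17 2.49-fold higher (6.55 and 6.13 against 5.14 and 4.91, adjusted p = 6.31e-05).

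Genes of chloroplast development were called higher more often than lower. Of 13 genes of chlorophyll and chloroplast development 7 were called higher in the mutant and 2 lower (median 0.53). GLK1, a regulator of chloroplast development, read 11.75 and 11.80 in the mutant, 10.12 and 10.35 in the transgenic line and 10.71 and 10.72 in the control, 2.91-fold higher in the mutant (adjusted p = 1.17e-06). PORA, for a chlorophyll synthesis enzyme, was 1.93-fold higher (11.20 and 11.33 against 10.18 and 10.45, adjusted p = 0.00236) and V2, a nucleotide kinase needed for early leaf greening, 2.06-fold lower (8.43 and 8.32 against 9.49 and 9.35, adjusted p = 0.000115). Of 12 genes of the photosynthetic apparatus 4 were called higher and 1 lower, at a median of 0.01. PSAG, a photosystem I subunit, was 2.73-fold higher (11.26 and 11.16 against 9.72 and 9.80, adjusted p = 1.81e-06), FBP1 1.79-fold higher (adjusted p = 0.00285) and LFNR1, a leaf ferredoxin-NADP reductase, 1.6-fold lower (adjusted p = 0.000673). A second probe set of PSAG, at 7.0 in the mutant and 6.96 in the transgenic line, was not called (0.04, adjusted p = 0.863).

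The clock genes differed in both directions. CCA1, which peaks at dawn, read 12.43 and 12.30 in the mutant, 10.24 and 10.23 in the transgenic line and 10.06 and 10.04 in the control, 4.38-fold higher in the mutant (adjusted p = 3.05e-08). A dimmer probe set of CCA1 was not called, at a difference of 0.02 (adjusted p = 0.949). The evening genes PCL1 and PRR1 were 4.33- and 2.71-fold lower in the mutant (6.23 and 6.12 against 8.11 and 8.47, and 9.36 and 8.90 against 10.60 and 10.54; adjusted p = 8.22e-07 and 1.1e-05). In all 3 genes the control lay with the transgenic line. Of 8 clock genes 2 were called higher and 2 lower, and the hour at which each line was frozen is not given in the sources used here.

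Genes of low oxygen held some of the largest rises in the mutant. The nonsymbiotic haemoglobin gene NSHB2 (LOC4332123) read 9.81 and 11.57 in the mutant, 7.36 and 6.40 in the transgenic line and 8.15 and 8.76 in the control, 14-fold higher in the mutant (adjusted p = 0.000365). NSHB1 (LOC4332166) read 9.21 and 11.20, 7.63 and 7.04 and 7.90 and 8.33, a 7.31-fold rise over the transgenic line (adjusted p = 0.00378). Mutant replicate 2 stood above replicate 1 in both, and the folds were 25.8 and 14.6 without mutant replicate 1 and 7.62 and 3.67 without replicate 2. Another 2 probe sets of NSHB1 were not called, at differences of 0.61 and 0.39. The rest of the group did not follow: of 16 genes 3 were called higher and 4 lower (median -0.12), with the sucrose synthase gene SUS5 3.9-fold lower (adjusted p = 2.81e-05).

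Reserve, antioxidant and heat shock genes were called about as often in each direction. Of 16 genes of amylases and grain reserve use 3 were called higher and 3 lower (median 0.16). EP3A, an endopeptidase gene of germinating grain, read 6.59 and 8.28 in the mutant, 10.87 and 10.23 in the transgenic line and 6.47 and 6.90 in the control, 8.66-fold lower in the mutant (adjusted p = 0.00216), or 4.82 and 15.6 without mutant replicate 1 and 2. The sucrose transporter gene SUT4 was 2.28-fold lower (adjusted p = 5.99e-05) and the amylase gene AMY1.5 2.15-fold higher (adjusted p = 0.000184). Of 13 grain markers 3 were called higher and none lower (median 0.11), with differences of 1.0 for GLUA-2, 0.69 for waxy and 0.29 for Sbe1. GLUA-2 had another probe set called in the opposite direction, at -0.51, and waxy and Sbe1 each had a probe set of the opposite sign that was not called. Sbe1 was not called without any 1 of the 4 arrays (adjusted p = 0.0753 to 0.117), nor waxy without mutant replicate 2 or transgenic replicate 2 (0.089 and 0.0861), and without either of these 2 arrays only 1 grain marker was called.

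Of 31 antioxidant genes 9 were called higher and 7 lower (median 0.06). The peroxidase gene PRX74 was 6.13-fold lower in the mutant (8.45 and 8.42 against 10.95 and 11.15, with 10.99 and 11.18 in the control, adjusted p = 4.03e-06). The glutathione transferase genes GSTF1 and gst2 were 2.26-fold lower and 2.21-fold higher (adjusted p = 3.64e-06 and 9.75e-06). Of 47 heat shock genes 11 were called higher and 11 lower (median 0.03). The heat shock factor gene HSF07 was 5.45-fold lower (8.21 and 7.77 against 11.08 and 9.79, with 7.72 and 7.93 in the control, adjusted p = 0.000115), or 3.48 and 8.51 without transgenic replicate 1 and 2. HSP26.2 was 3.78-fold lower (adjusted p = 5.43e-05) and hsp17.9 3.72-fold higher (adjusted p = 4.09e-06), both small heat shock proteins.

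Growth hormone genes held single large differences within mixed groups. Of 60 auxin genes 22 were called lower in the mutant and 11 higher (median -0.08), which fell from 33 to 21 without transgenic replicate 1. SAUR39 (LOC9271092), known in rice to restrain auxin synthesis and transport, read 10.95 and 10.90 in the mutant, 7.76 and 8.85 in the transgenic line and 9.34 and 9.47 in the control, 6.15-fold higher in the mutant (adjusted p = 2.17e-05). IAA12, an Aux/IAA repressor gene, was 6.92-fold lower (7.03 and 7.19 against 10.11 and 9.69, adjusted p = 7.71e-07) and the auxin response factor gene ARF10 3.27-fold lower (adjusted p = 1.45e-06). Of 31 cytokinin genes 8 were called each way. CKX11 (LOC4345764), a cytokinin oxidase that breaks the hormone down, read 11.81 and 11.58 in the mutant, 8.89 and 9.37 in the transgenic line and 10.05 and 10.06 in the control, 5.92-fold higher in the mutant (adjusted p = 4.06e-07). The response regulator genes RR1 and RR9, which cytokinin induces, were 3.31- and 2.51-fold lower (adjusted p = 1.78e-05 and 0.000163).

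Of 13 gibberellin genes 6 were called higher and 3 lower (median 0.19), and the 9 calls fell to 5 without either transgenic array. CYP88A5, for a kaurenoic acid oxidase of gibberellin synthesis, was 4.14-fold higher (9.10 and 8.82 against 6.89 and 6.93, adjusted p = 1.55e-06) and GA20OX2, the semidwarf gene of rice breeding, 2.08-fold higher (8.08 and 7.68 against 6.79 and 6.85, adjusted p = 0.000282). CPS1, at the entry of the pathway, was 2.92-fold lower (adjusted p = 0.00146). Estrela A averaged 7.96 for GA20OX2 and 5.17 for CPS1, near the mutant at 7.88 and 5.27. The Nipponbare control averaged 6.82 and 6.71 and Bengal 6.71 and 6.71, near the transgenic line. For CYP88A5 the Nipponbare control averaged 6.89, and Bengal and Estrela A 8.55 and 7.88. Of 12 brassinosteroid and strigolactone genes 5 were called lower and 2 higher (median -0.20). The brassinosteroid synthesis genes CYP90A4 and CYP85A1 were 2.76- and 2.23-fold lower (adjusted p = 8.99e-06 and 3.64e-05) and the strigolactone synthesis gene CCD8A 3.02-fold lower (adjusted p = 0.000376). Of 13 ethylene genes 4 were called lower and 1 higher (median -0.03), and 2 were called without mutant replicate 1 and 3 without transgenic replicate 1. Among them ACS2, an ACC synthase of ethylene synthesis, was 3.08-fold lower (adjusted p = 0.0294) and not called without transgenic replicate 1 (adjusted p = 0.229) or without either mutant array. MHZ4 and EREBP1 were 1.75- and 1.39-fold lower (adjusted p = 6.65e-05 and 0.00104), with another probe set of EREBP1 not called (-0.29). The ethylene list was 38.5% called, less than the 50.4% of all genes.

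**Figure D4:**
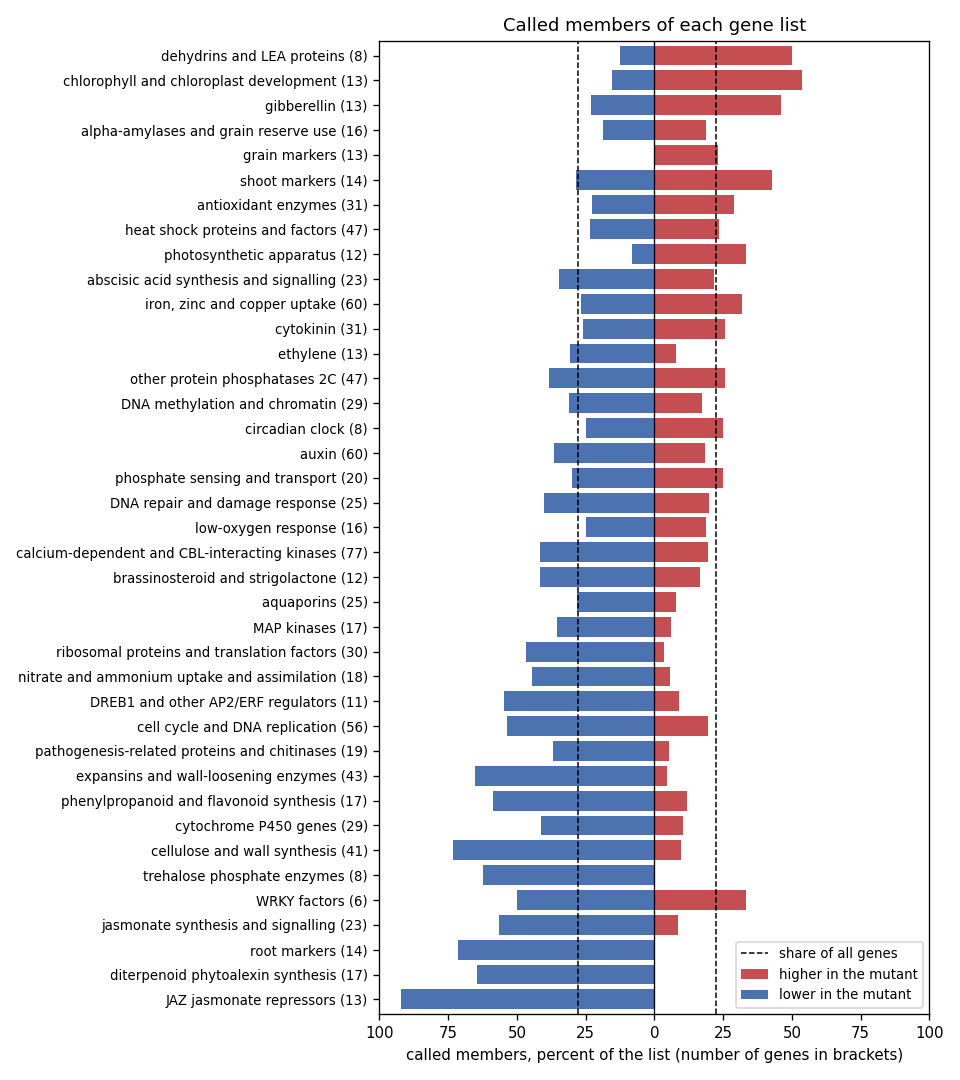
Share of each gene list called higher (red, to the right) and lower (blue, to the left) in the unstable mutant than in the unstable transgenic line, in percent of the genes in the list. Lists are ordered by their median difference, and the dashed lines mark the share of all genes called, 22.5% higher and 27.9% lower. JAZ repressors, diterpenoid synthesis and root markers stand at the bottom with no member called higher, and dehydrins at the top.

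Signalling enzymes held calls in both directions. Of 77 calcium-dependent and CBL-interacting kinases and calcium sensors 32 were called lower in the mutant and 15 higher (median -0.14), and of 47 protein phosphatases 2C outside clade A 18 were called lower and 12 higher (median -0.04). CPDK2 (LOC4333181), named as a calcium-dependent kinase but outside that list by its spelling, read 10.70 and 11.36 in the mutant, 6.12 and 6.84 in the transgenic line and 7.75 and 8.27 in the control. This 23.4-fold difference was the largest rise among genes with a name (adjusted p = 7.16e-06). The calmodulin-like genes CML16 and CML27 were 6.59- and 3.66-fold lower (9.42 and 9.75 against 12.73 and 11.88, and 9.88 and 10.19 against 12.33 and 11.48; adjusted p = 6.24e-06 and 0.000116). The kinase gene CPK21 was 5.03-fold lower (4.34 and 5.57 against 7.51 and 7.06, adjusted p = 0.000269), or 3.28 and 7.7 without mutant replicate 1 and 2. OsPP2C15 and OsPP2C27 were 3.64- and 3.18-fold lower and OsPP2C39 2.57-fold higher (adjusted p = 0.000258, 6.76e-06 and 2.33e-05), with OsPP2C15 at 2.39 without transgenic replicate 1 and 5.54 without replicate 2.

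Of 17 MAP kinases 6 were called lower and 1 higher (median -0.22), and the 7 calls fell to 4 without transgenic replicate 1. The list was 41.2% called, less than the 50.4% of all genes. MAPK6 was 4.39-fold lower (9.21 and 9.0 against 11.66 and 10.82, with 9.77 and 9.73 in the control, adjusted p = 1.35e-05) and MPK14 1.89-fold lower (adjusted p = 7.46e-05). BIMK1 was 2.28-fold lower (9.16 and 9.22 against 11.08 and 9.68, adjusted p = 0.015), and 1.4- and 3.71-fold lower without transgenic replicate 1 and 2. It was not called without either mutant array or transgenic replicate 1. Of 30 ribosomal proteins and translation factors 14 were called lower and 1 higher (median -0.27), falling from 15 to 8 without mutant replicate 1 or transgenic replicate 2. The differences were small, as in RPS26 (-0.63), RPL39C (-0.54) and RPL11 (-0.52), all with both mutant arrays below both transgenic arrays.

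Further named genes with large rises fall into no list. BURP16 (LOC4348595), of the plant-specific BURP domain family, read 13.80 and 13.75 in the mutant, 8.96 and 9.79 in the transgenic line and 7.85 and 8.44 in the control, 21.1-fold higher in the mutant (adjusted p = 6.15e-06). SAT1 (LOC4324655) read 12.17 and 12.08, 9.36 and 9.14 and 8.65 and 9.02, a 7.34-fold difference (adjusted p = 6.43e-07). Bengal and Estrela A read 13.61 and 13.30 for BURP16 and 11.96 and 11.47 for SAT1, beside the mutant and not beside the Nipponbare control. The same held for CPDK2 (10.60 and 10.12) and NSHB2 (11.34 and 11.62).

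The largest differences of all lay partly in genes known by an identifier alone, described here after their values were seen. LOC4331398 was bright in the transgenic line alone: it read 4.30 and 4.13 in the mutant, 11.62 and 11.49 in the transgenic line and 4.0 and 4.18 in the control, 162-fold lower in the mutant (adjusted p = 1.23e-11). A separate probe set of LOC4331398 gave a difference of -7.58. LOC4351514 and LOC4325751 were also high in the transgenic line alone, by 44.2- and 31-fold over the mutant (adjusted p = 5.66e-06 and 0.00012). LOC4335417 read 7.85 and 7.12 in the mutant, 12.61 and 11.78 in the transgenic line and 5.40 and 5.84 in the control, so that the mutant lay above the control and 26.2-fold below the transgenic line (adjusted p = 6.14e-06). Without transgenic replicate 1 the folds of LOC4351514 and LOC4325751 were 25.2 and 11.5, against 77.4 and 83.6 when replicate 2 was dropped. LOC4329797 was low in the mutant alone among the Nipponbare groups, with mutant arrays far apart at 4.59 and 8.08 against 13.18 and 12.60 in the transgenic line and 12.25 and 12.42 in the control. Its fold of 94 (adjusted p = 9.75e-05) became 28.1 without mutant replicate 1 and 315 without replicate 2.

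Among genes higher in the mutant, LOC4334644 read 12.52 and 11.80 in the mutant, 5.87 and 6.68 in the transgenic line and 6.18 and 6.92 in the control, 59.1-fold higher in the mutant (adjusted p = 5.52e-07), with 11.96 in Bengal and 11.55 in Estrela A. LOC4344505 had the same arrangement, 40.6-fold higher in the mutant (adjusted p = 4.37e-09). LOC4352467 read 11.06 and 10.54 in the mutant, 4.98 and 5.20 in the transgenic line and 4.94 and 5.37 in the control, a 52.3-fold difference (adjusted p = 4.77e-08). It was high in Bengal (11.37) and low in Estrela A (5.93), so its level in the mutant was that of Bengal.

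Chromosome 11 held more of the large rises than any other. Of its 846 genes on the array 12 were called and at least 8-fold higher in the mutant (1.42%), against 31 of 17905 over all chromosomes (0.173%), and chromosome 3 came next with 6. At least 8-fold lower were 3 genes of chromosome 11 (0.355%, against 0.586% of all), and the share called at any size, 48.8%, was near that of all genes. Gene order was taken from assembly ASM3414082v1, which the array does not use, and only for which genes neighbour each other.

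The 12 genes differed in their pattern over the cultivars. LOC4350994, LOC4350996 and LOC4350998 lie next to each other, with 1 annotated gene between the last pair. LOC4350996 read 9.01 and 8.69 in the mutant, 3.58 and 3.54 in the transgenic line and 3.91 and 3.94 in the control, 39.1-fold higher in the mutant (adjusted p = 4.37e-09), and it read 8.86 in Bengal and 3.48 in Estrela A. Its neighbours LOC4350994 and LOC4350998 were 15.1- and 12.1-fold higher (adjusted p = 5.69e-08 and 4.37e-09), and all 3 were high in the mutant and in Bengal and low in the other Nipponbare groups and Estrela A.

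LOC4350420, LOC4350879, LOC4350888 and APG8D, a gene of the autophagy protein family ATG8, were high in the mutant, Bengal and Estrela A and low in the transgenic line and the Nipponbare control. LOC4350879 read 11.05 and 10.66 in the mutant, 5.45 and 5.39 in the transgenic line and 5.92 and 5.12 in the control, 43.3-fold higher in the mutant (adjusted p = 2.11e-08). LOC4350420 was 42.5-fold, LOC4350888 13.2-fold and APG8D 10.9-fold higher (adjusted p = 1.37e-09, 1.37e-08 and 7.14e-06).

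LOC4350125, LOC4350133 and LOC4350667 were high in the mutant and low in all 6 other groups. LOC4350133 read 8.46 and 8.56 in the mutant, 3.91 and 3.63 in the transgenic line and 3.24 and 3.71 in the control, with 3.60 in Bengal and 3.51 in Estrela A, 26.7-fold higher in the mutant than in the transgenic line (adjusted p = 8.56e-09). LOC4350667 and LOC4350125 were 14.6- and 9.58-fold higher (adjusted p = 2.18e-09 and 4.24e-08). LOC4350668, the direct neighbour of LOC4350667, was 13.7-fold higher (adjusted p = 4.72e-07), and LOC4350388 8.31-fold higher (adjusted p = 1.39e-05), with a dim second probe set of LOC4350388 not called (0.15). Of the 27 chromosome 11 probe sets in the cultivar check 8 were not on the Nipponbare side in the mutant, against 37 of 320 overall.

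**Figure D5:**
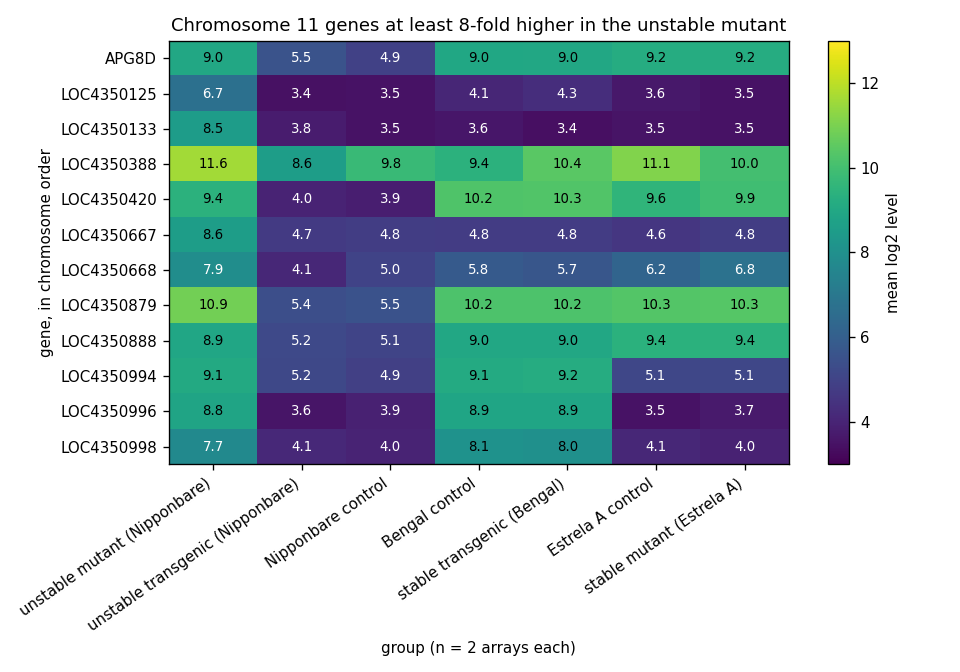
Mean log2 level (colour and printed value, n = 2 arrays) of the 12 chromosome 11 genes at least 8-fold higher in the unstable mutant, in chromosome order (rows), in the 7 groups (columns). The first column is high throughout while the unstable transgenic line and the Nipponbare control, next to it, are low in all rows but LOC4350388. Of the other groups only both Bengal groups are high in the last 3 rows.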

How the data were processed

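The 14 arrays (Affymetrix Rice Genome Array, 2 per group) were deposited as log2 expression values that the authors computed by RMA in Partek, with background correction, quantile normalization and median polish, per the labels' design text; the sources used here give no versions. Array medians lay between 5.83 and 5.89. The 187 control and reporter probe sets were left out of the test of 57194.

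A model of 7 group means over all 14 arrays was fitted with limma 3.58.1 (R 4.3.3), with moderated two-sided tests of mutant minus transgenic line and Benjamini-Hochberg adjustment over all probe sets. The 2 pools of a group are separate samples, and p-values measure only the spread between pools. The number of arrays limits the precision.

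Gene names came from the array annotation through RefSeq (assembly ASM3414082v1): 22436 probe sets had 1 gene, 95 several and 34663 none. Each gene was read from its brightest probe set by the mean of the 14 arrays. Named genes are the 10 largest called differences each way among genes with a name, with arrays of the lines not overlapping and the higher mean at or above the median of all values, 5.86, and up to 3 called members of each of 39 lists with the largest difference. Members and lists were chosen with earlier results of these data known, and other genes were named after their values were seen. Replicate numbers did not pair the lines (correlation of deviations between same-numbered mutant and transgenic arrays, -0.099).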

Additional observations from a re-analysis of the deposited data

How the results depend on the processing

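The number of called probe sets ranged from 12738 to 17341 over the alternatives that kept the threshold and the probe sets, against 16789. Leaving out 1 array of the lines gave 12738 to 14209 calls, 6609 to 7652 higher in the mutant, 6107 to 6592 lower, and 415 to 480 of the 545 called list genes. With a further demand of 2-fold, 4698 probe sets were called, 2025 higher and 2673 lower, and 228 list genes. Restricted to probe sets that did not differ among the cultivar controls, chosen after seeing the data, the counts were 6913, 2771, 4142 and 222, and both restrictions leave fewer features by construction. Cyclic loess gave 7844 higher and 8864 lower, so that 46.9% of calls were higher in place of 53.5% and the direction of the split turned, and the cause was not tested. With the replicate block 16359 probe sets and 531 list genes were called, and no named gene lost its call. Leaving out a Nipponbare control array, also chosen after seeing the data, gave 17341. None of the 134 named genes changed sign in the 15 settings, and 124 kept the call in each of them. The list medians that changed sign with the scaling were those of heat shock genes, iron, zinc and copper genes and the photosynthetic apparatus. A call kept without 1 array of a line rests on the spread of the other groups. Dim probe sets limit what can be said of low levels, and 2 pools per line limit the rest.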
